A study of Mus musculus with 10 samples.

Results

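Expression of the stem cell and R-spondin receptor genes was measured in colon crypts, the epithelial glands whose bases hold the Lgr5-positive stem cells of the colon. The 10 genes were taken by name from a table of 33632 gene IDs, with earlier results of these data known: Lgr5, Lgr4, Rnf43, Znrf3, Ascl2, Smoc2, Axin2, Tnfrsf19, Nkd1 and Lrig1. All 10 had 1 gene ID each and passed the filter on low counts.

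The series holds 10 RNA-seq libraries of mouse colon crypts in 2 groups of 5, and the labels give a normal diet and a normal liver for both. The first group (flox) was Sox21fl/fl, meaning that loxP sites flank both Sox21 alleles, and carried no Cre. In the second group (CKO) the genotype was Lgr5-EGFP-IRES-CreERT2/+;Sox21fl/fl. Those mice also carried, at 1 Lgr5 allele, a cassette for a green fluorescent protein and a Cre recombinase that tamoxifen activates. Cre is thus made where the Lgr5 promoter is active, and the comparison asks what changes in crypts when the transcription factor Sox21 is deleted in those cells. The labels give neither the age of the mice nor whether flox mice received tamoxifen, and they do not say whether the libraries came from separate animals, so the p-values speak only to variation among these libraries, which may be technical. Only CKO carried the knock-in, so its presence and the deletion of Sox21 cannot be told apart here.

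R-spondins are secreted proteins that strengthen Wnt signalling in crypt stem cells. They bind Lgr4 and Lgr5 at the cell surface and draw off Rnf43 and Znrf3, a pair of membrane ubiquitin ligases that otherwise remove Frizzled receptors. With these ligases held back, Wnt proteins keep β-catenin active. It switches on stem cell genes such as Ascl2 and Lgr5, together with genes that damp the pathway again, among them Axin2, Nkd1, Rnf43 and Znrf3.

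None of the 10 genes passed the test of CKO against flox. edgeR's quasi-likelihood test called 0 of 10 after Benjamini-Hochberg adjustment over 14963 genes, where it called 0 genes in all (0%). Adjusted p-values ran from 0.372 for Smoc2 to 0.936 for Tnfrsf19. DESeq2 and limma voom with quality weights also called 0 of the 10, while over the whole table they called 170 (1.14% of the genes tested) and 44 genes. At an unadjusted p under 0.05 edgeR had 1 of the 10 (Smoc2), where all genes had 13%. The fitted values were nonetheless mostly on 1 side. Log2 fold changes were above 0 in CKO for 8 of the 10 genes (50.1% of all genes) and at least 0.5 for 7 of them (8.2% of all genes). Their median was 0.60, beside 0.0010 for all genes. In 0 of the 10 genes did the libraries of both groups separate without overlap, where 0.922% of all genes had every CKO library above every flox library and 1.26% had every CKO library below.

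As sequence context for a study of a Sox factor and of Wnt targets, promoter windows of RefSeq (build GRCm38.p6, 250 bases before to 50 after a start) were searched on both strands for the letters AACAAT, a core of Sox binding sites, and CTTTGAT, a core of TCF binding sites. Windows were given for 7 of the 10 genes (9 windows; none for Lgr5, Znrf3 and Smoc2). The Sox letters were in 2 of the 9 windows and in 10.7% of all 32851 windows, and the TCF letters were in 1 of 9 and in 3.73% of all. The 3 matches are shown 5′ to 3′ on the strand of the gene, with the match in capitals, because they are the only ones in these genes; each is the reverse complement of the letters searched, so the match lies on the opposite strand. They are a Sox match in Lrig1 at chr6:94700142-94700187 (minus strand, first base of the match 22 bases before the start), a Sox match at an internal start of Rnf43 at chr11:87699874-87699919 (plus strand, 3 bases before) and a TCF match in Tnfrsf19 at chr14:61038163-61038209 (minus strand, 202 bases before).
Lrig1: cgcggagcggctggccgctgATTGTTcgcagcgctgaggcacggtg
Rnf43: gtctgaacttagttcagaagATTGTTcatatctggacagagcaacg
Tnfrsf19: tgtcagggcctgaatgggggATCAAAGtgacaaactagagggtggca
A match describes letters and shows no binding. These 3 genes had log2 fold changes of 0.63, 0.20 and -0.12 in CKO, none past the threshold.

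Total counts were similar in both groups, at 18926634 to 23642415 per library, but the normalized library sizes were less even. The normalization factor, by which the total is multiplied, was lowest for flox 1 (0.585) and flox 4 (0.605). Elsewhere it ran from 0.965 (CKO 4) up to 1.28 (CKO 5). Fewer genes also had a count in that pair, 20209 for flox 1 and 20449 for flox 4. All remaining libraries had between 22048 (CKO 4) and 24372 (CKO 5) such genes. The share of counts on mitochondrial genes was 26.5% in flox 1 and 29.3% in flox 4, and 4.30% to 11.8% in the other libraries (two-sided exact permutation p = 0.167 between groups, n = 5 each). Sox21 itself did not check the labels. Its transcript averaged 4.04 ± 1.80 CPM in the 5 flox libraries and 5.34 ± 1.94 CPM in the CKO libraries (SD), so flox and CKO stand below for the libraries that carry those labels. CPM is counts per 1e6 of the normalized library size. Which part of Sox21 is deleted is not stated in the sources.

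The libraries with the high mitochondrial share were also low in most of the 10 genes. Flox 1 was the lowest flox library in 8 of the 10 genes and the lowest of all 10 libraries in 6. Flox 4 was below the flox mean in all 10. Flox 2, with a mitochondrial share of 4.88%, was the highest flox library in 9 of the 10. The share of all genes with the same ranks is not given here, so the ranks are not read as particular to these 10 genes. Without flox 1 and flox 4 the median log2 fold change of the 10 genes was 0.25, with 7 of them above 0 (53.3% of all genes), and it was 0.18 once the mitochondrial share entered the fit as a covariate, again with 7 above 0. In either fit the log2 fold change moved towards 0 for 7 of the 10 genes, while Ascl2 moved further above 0 and Nkd1 and Tnfrsf19 further below. The heatmap of deviations from the flox mean shows both libraries at its right edge.

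**Figure D1:**
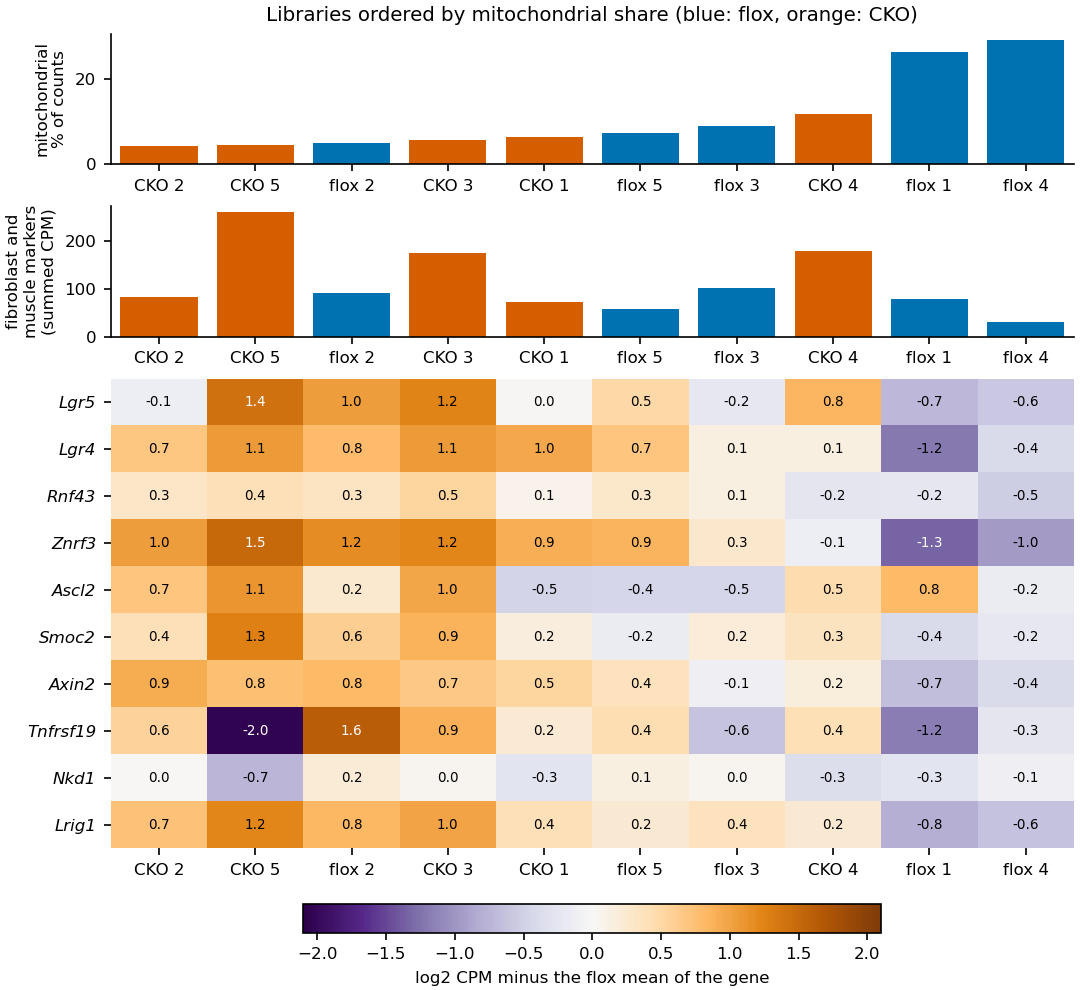
Libraries are ordered from left to right by the share of counts on mitochondrial genes (top bars, percent), with the summed CPM of 13 fibroblast and muscle markers below. The heatmap gives the log2 CPM of each gene minus its flox mean; flox 1 and flox 4, at 26.5% and 29.3% mitochondrial counts, are below the flox mean in 9 and 10 of the 10 genes, while CKO 5 has the highest marker sum (259 CPM).

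Of the ligands, R-spondin transcripts were scarce in these crypts. Rspo1 stood at 0.32, 0.50, 0.76, 0.08 and 0.26 CPM in flox 1 to 5 and at 0.57, 0.40, 0.52, 0.55 and 0.39 CPM in CKO 1 to 5. It was the only tested gene among the R-spondins and Lgr6, with a log2 fold change of 0.27 ± 0.46 (SE, adjusted p = 0.766) that became -0.06 without flox 1 and flox 4. Rspo3 and the third receptor Lgr6 had no more than 0.13 CPM in any library and were not tested. Rspo2 and Rspo4 matched no gene ID and were not analysed here. In the gut R-spondins are known as products of stromal cells beneath the crypts. Markers of fibroblasts and muscle summed to 30.3 to 101 CPM in flox and to 71.9 to 259 CPM in CKO. All 11 tested markers had a log2 fold change above 0 (50.1% of all genes). Among these markers 0 passed the adjusted threshold and 6 had an unadjusted p under 0.05 (5.05% of all genes were higher at that p). Their median was 0.94. Without flox 1 and flox 4 the same 11 genes were all above 0 with a median of 0.999, and 1 of the 6 kept an unadjusted p under 0.05. The markers Acta2 and Myh11 failed the filter on low counts of all libraries.

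Lgr5, the receptor that marks crypt stem cells and the locus of the Cre, had 1.58, 5.57, 2.27, 1.74 and 3.76 CPM in flox 1 to 5. In CKO 1 to 5 it had 2.71, 2.43, 6.43, 4.83 and 7.25 CPM. The groups overlapped, since CKO 1 and CKO 2 lay below flox 5 and flox 2, and flox 2 also above CKO 4, while all 5 CKO libraries lay above flox 1, flox 3 and flox 4. Means were 2.99 ± 1.68 and 4.73 ± 2.16 CPM (SD, n = 5 each). The log2 fold change of Lgr5 was 0.64 ± 0.41 (SE, edgeR adjusted p = 0.465). These values rest on 20 to 205 counts per library; the 20 counts of flox 1 have an exact Poisson 95% interval of 12.2 to 30.9, which covers counting error only.

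The Lgr5-EGFP-IRES-CreERT2 allele is known to carry its cassette at the start of the Lgr5 coding sequence, so that it makes the reporter and Cre and no receptor, and to be active in a part of the crypts only. A count per gene cannot separate reads of that allele from those of the normal one. For Lgr5 the ratio of CKO over flox had a 95% interval that ran from 0.836 to 2.91. The part of each allele in it was not tested. Without flox 1 and flox 4 the log2 fold change was 0.30 ± 0.41. Within CKO, Lgr5 was at 4.83 to 7.25 CPM in the libraries CKO 3, CKO 4 and CKO 5, where fibroblast and muscle markers summed to 174, 178 and 259 CPM. In CKO 1 and CKO 2 those sums were 71.9 and 81.5 CPM. Within flox the order was another, with the highest Lgr5 in flox 2 (marker sum 90.7 CPM) and 2.27 CPM in flox 3 (101 CPM). The part of these markers in the Lgr5 values was not tested.

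Lgr4, the receptor found throughout the crypt, had 18.5, 74.3, 47.4, 32.4 and 69.5 CPM in flox 1 to 5. In CKO 1 to 5 it had 83.3, 69.0, 89.7, 47.5 and 89.6 CPM. CKO 1, CKO 3 and CKO 5 were above every flox library, while CKO 4 was level with flox 3. For Lgr4 the log2 fold change was 0.64 ± 0.33 (SE, edgeR adjusted p = 0.405), and 0.26 ± 0.22 without flox 1 and flox 4. Counts of Lgr5 per 100 counts of Lgr4, a quantity that no scaling of libraries changes, were 6.32 ± 1.61 in flox and 6.44 ± 2.99 in CKO (SD, n = 5 each). CKO 1 and CKO 2, at 3.26 and 3.52, were below the lowest flox library at 4.8. The other CKO libraries ran from 7.17 to 10.1.

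**Figure D2:**
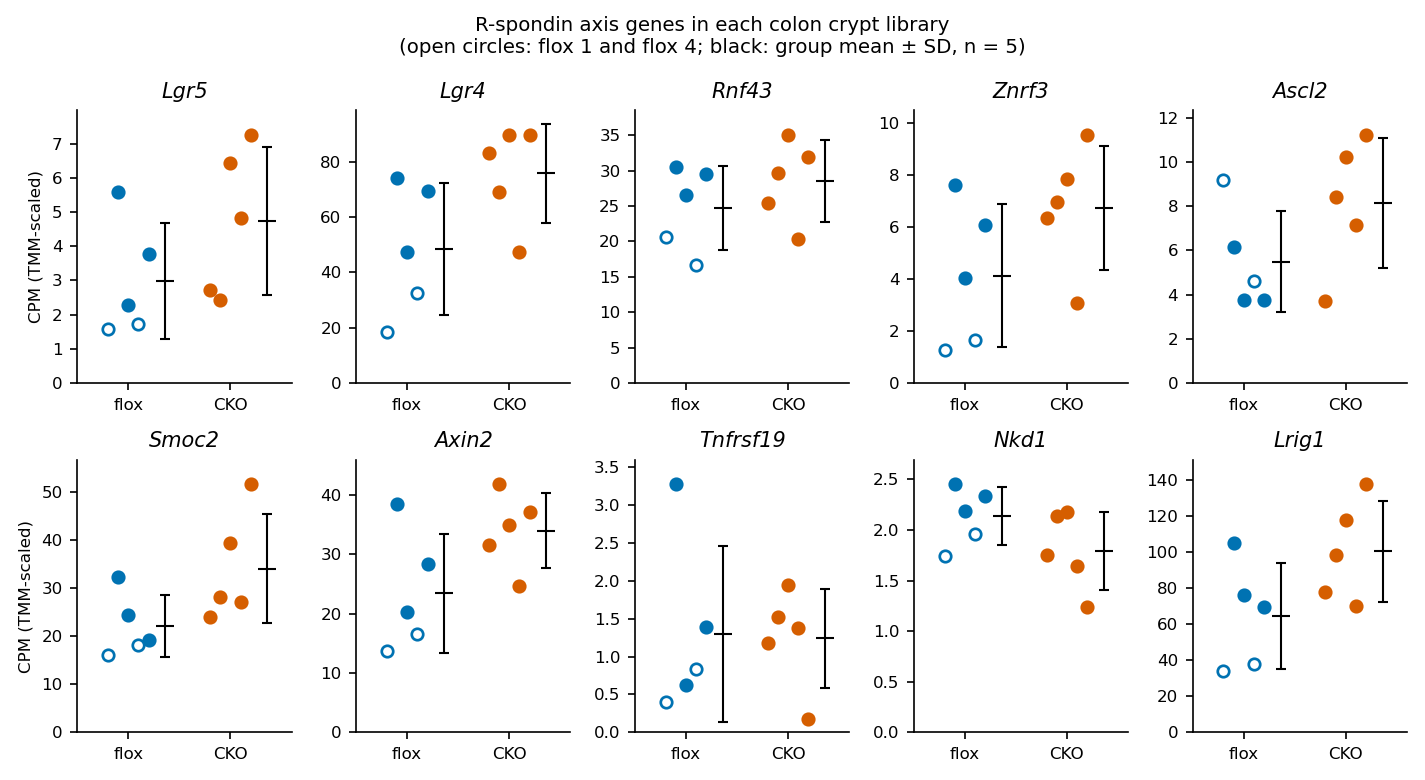
Each panel plots 1 gene in CPM on a linear axis from 0, with 1 point per library, blue for flox and orange for CKO, and open circles for flox 1 and flox 4. Black bars are the group mean ± SD (n = 5 each). The groups overlap in all 10 panels, as in Lgr5, where CKO 1 and CKO 2 (2.71 and 2.43 CPM) lie below flox 2 (5.57 CPM).

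The ubiquitin ligases Znrf3 and Rnf43, which carry out the same step, differed in how much they varied. Znrf3 had 1.27, 7.63, 4.06, 1.66 and 6.10 CPM in flox 1 to 5 and 6.35, 6.99, 7.85, 3.07 and 9.55 CPM in CKO 1 to 5. Its log2 fold change of 0.68 ± 0.45 (SE, edgeR adjusted p = 0.477) was the highest of the 10 genes, and 0.05 ± 0.23 given that share of mitochondrial counts as a covariate. Both low flox values belong to flox 1 and flox 4, with 16 and 22 counts, and the lowest CKO value to CKO 4, the CKO library with the highest mitochondrial share (11.8%).

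Rnf43 was steadier, at 20.6, 30.5, 26.5, 16.7 and 29.5 CPM in flox 1 to 5. In CKO 1 to 5 it was at 25.5, 29.7, 35.0, 20.3 and 32.0 CPM. Its log2 fold change was 0.20 ± 0.19 (SE, adjusted p = 0.610), and -0.0083 ± 0.17 without flox 1 and flox 4. Counts of Znrf3 per 100 counts of Rnf43 were 6.15 in flox 1 and 9.95 in flox 4, then 15.1 in CKO 4 and 15.3 in flox 3, and 20.6 to 29.9 in the others. The 4 libraries with the lowest ratio are thus the 4 with the highest mitochondrial share (9.03% to 29.3%).

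The receptors that these ligases remove, the Frizzled proteins and the co-receptors Lrp5 and Lrp6, also had values that moved when flox 1 and flox 4 were left out. Log2 fold changes were above 0 for 11 of 12 tested genes with all libraries (50.1% of all genes). Without flox 1 and flox 4 they were above 0 for 5 of 12 (53.3% of all genes). The medians were 0.19 and -0.02. By edgeR 0 of the 12 passed, and 0 had an unadjusted p under 0.05. The smallest p belonged to Lrp6, whose flox mean was 61.4 ± 18.7 CPM and CKO mean 78.8 ± 8.89 CPM (adjusted p = 0.417), and to Fzd7, at 7.2 ± 3.69 and 10.7 ± 2.17 CPM (adjusted p = 0.433). Of 7 tested Wnt ligands and secretion factors 3 were above 0 and 4 below, again with 0 past the threshold. Wnt4 averaged 1.31 ± 0.77 CPM in flox libraries and 2.17 ± 1.04 CPM in CKO libraries, and Wls, which carries Wnt proteins to the cell surface, had 47.6 ± 15.0 and 54.9 ± 11.1 CPM.

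Among the targets of the pathway, Axin2, a scaffold that helps to destroy β-catenin and is widely used as a readout of Wnt activity, had 13.7, 38.4, 20.2, 16.5 and 28.3 CPM in flox 1 to 5. In CKO 1 to 5 Axin2 had 31.6, 41.7, 34.8, 24.7 and 37.0 CPM. All 5 CKO libraries were above the flox mean of 23.4 CPM, and only CKO 2 was above flox 2. The log2 fold change was 0.53 ± 0.26 (SE, edgeR adjusted p = 0.396), 0.24 ± 0.21 without flox 1 and flox 4, and 0.16 ± 0.16 given the mitochondrial covariate.

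Nkd1, an inhibitor that binds Dishevelled and is itself a Wnt target, was not on the same side as Axin2. It had 1.74, 2.45, 2.18, 1.96 and 2.34 CPM in flox 1 to 5 and 1.75, 2.14, 2.18, 1.65 and 1.24 CPM in CKO 1 to 5. Its log2 fold change of -0.26 ± 0.23 (SE, edgeR adjusted p = 0.583) missed the threshold, and CKO 4 and CKO 5 were below every flox library. Counts of Nkd1 per 100 counts of Axin2 were 12.7, 6.38, 10.8, 11.9 and 8.24 in flox 1 to 5. The same ratio was 5.55, 5.12, 6.26, 6.67 and 3.34 in CKO 1 to 5. In 4 of 5 CKO libraries the ratio was below the lowest flox library, flox 2, and CKO 4 was the exception. The pairs for these ratios were chosen after the counts were seen, so no test is given for them. Nkd1 rests on 22 to 69 counts per library.

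Of the other genes that damp Wnt signalling, 4 of 5 tested had a log2 fold change above 0 (50.1% of all genes), and 0 passed the threshold. The exception was Kremen2, a receptor for Dickkopf inhibitors, with a flox mean of 11.8 ± 6.02 CPM and a CKO mean of 6.04 ± 1.35 CPM (log2 fold change -0.95 ± 0.32, SE, unadjusted p = 0.0125, edgeR adjusted p = 0.365). Its highest values were 18.0 CPM in flox 1 and 18.6 CPM in flox 4, against 4.60 to 8.47 CPM in the other 8 libraries, and the log2 fold change was -0.29 without those 2. Axin1, the constitutive relative of Axin2, had 49.6 ± 5.91 and 54.6 ± 4.89 CPM (adjusted p = 0.557).

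Ascl2, the transcription factor that sets the stem cell program downstream of Wnt, had 9.18, 6.14, 3.74, 4.61 and 3.76 CPM in flox 1 to 5. CKO 1 to 5 had 3.72, 8.40, 10.2, 7.13 and 11.2 CPM. Flox 1 was the highest flox library here, unlike in the other 9 genes, and CKO 1 was the lowest of all. The log2 fold change was 0.58 ± 0.32 (SE, edgeR adjusted p = 0.428). It was 0.85 ± 0.34 without flox 1 and flox 4, with an unadjusted p of 0.0281 and an adjusted p of 0.737, where 6.41% of all genes had an unadjusted p under 0.05. Ascl2 has the shortest annotated exons of the 10 genes, 1623 bases against 4558 to 10264 bases in the others. In flox 1 the 2443 tested genes with exons under 2000 bases lay a median of 0.52 above their mean over all libraries on the log2 scale, and the 4068 genes over 6000 bases a median of 0.30 below (-0.30). The corresponding medians were 0.27 and -0.18 in flox 4. In flox 2, flox 3 and flox 5 the genes over 6000 bases had medians of 0.13, -0.05 and 0.11. In CKO 1 to 5 they had 0.14, 0.13, 0.08, -0.08 and 0.07. Whether gene length played a part in the values of Ascl2, or in those of the other 9 genes, was not tested.

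Tnfrsf19, the receptor TROY that marks Lgr5-positive cells, was the scarcest of the 10 genes and the most uneven. It had 5, 92, 14, 11 and 32 counts in flox 1 to 5, or 0.40, 3.27, 0.62, 0.83 and 1.38 CPM. CKO 1 to 5 had 27, 42, 56, 25 and 5 counts, or 1.18, 1.52, 1.94, 1.37 and 0.18 CPM. Flox 2 was above every other library and CKO 5 below, with an exact Poisson 95% interval of 1.62 to 11.7 for its 5 counts. The fitted log2 fold change was -0.12 ± 0.62 (SE, edgeR adjusted p = 0.936), and it changed sign to 0.58 without flox 2 and to 0.17 without CKO 5. The 95% interval of the ratio, 0.360 to 2.37, is wide enough to hold a large change in either direction.

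Smoc2, a secreted matricellular protein of the stem cell signature, had 16.1, 32.3, 24.3, 18.3 and 19.2 CPM in flox 1 to 5. In CKO 1 to 5 it had 23.9, 28.2, 39.4, 27.2 and 51.6 CPM. CKO 3 and CKO 5 were above every flox library, and all 5 CKO libraries were above the flox mean of 22.1 CPM. With a log2 fold change of 0.62 ± 0.24 (SE) it had the smallest p of the 10 genes (unadjusted p = 0.0257, edgeR adjusted p = 0.372), and the 95% interval of its ratio ran from 1.06 to 2.23. Leaving out flox 1 and flox 4 gave 0.44 ± 0.27, and the mitochondrial covariate 0.38 ± 0.23. Fibroblasts are also known to make Smoc2. Its highest value was in CKO 5, which also had the highest sum of fibroblast and muscle markers (259 CPM), but CKO 4, with a sum of 178 CPM, had a lower Smoc2 than flox 2. The part of these markers in the Smoc2 values was not tested.

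Lrig1, a membrane protein that restrains ErbB receptors and marks stem cells, had 34.0, 105, 76.4, 38.2 and 69.8 CPM in flox 1 to 5 and 77.9, 98.8, 118, 70.3 and 138 CPM in CKO 1 to 5. Every CKO library was above the flox mean of 64.8 CPM, and flox 2 was above CKO 1, CKO 2 and CKO 4. For Lrig1 the log2 fold change was 0.63 ± 0.30 (SE, edgeR adjusted p = 0.392), 0.27 ± 0.23 without flox 1 and flox 4, and 0.19 ± 0.17 given the mitochondrial covariate. Its family members and the ErbB receptors had 0 of 5 tested genes past the threshold. Erbb2 had 214 ± 23.8 CPM in flox and 177 ± 29.8 CPM in CKO (log2 fold change -0.27 ± 0.15, adjusted p = 0.412). Egfr had 18.0 ± 7.16 and 24.5 ± 1.21 CPM (0.44 ± 0.24, adjusted p = 0.422).

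**Figure D3:**
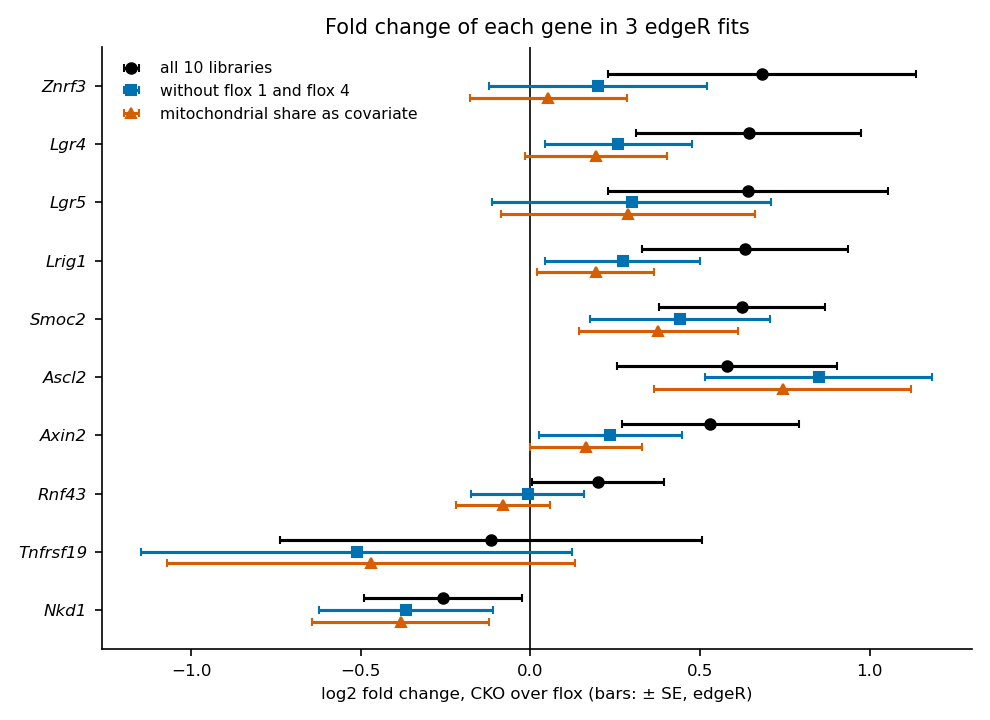
Points are log2 fold changes of CKO over flox in 3 edgeR fits, with bars of ± 1 SE: all libraries (black circles), without flox 1 and flox 4 (blue squares) and one whose covariate is the mitochondrial share of counts (orange triangles). In 9 of the 10 genes both alternatives lie to the left of the fit of all libraries, as in Znrf3 (0.68, 0.20 and 0.05); in Ascl2 they lie to the right (0.58, 0.85 and 0.74). Nkd1 and Tnfrsf19, below 0 in the first fit, lie further from 0 in both alternatives.

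The wider set of crypt base stem cell genes was not uniformly on 1 side. Of 14 tested genes 7 had a log2 fold change above 0 and 7 below, with a median of -0.0031, and 0 passed the threshold. The smallest p belonged to Cdca7, a MYC-regulated chromatin factor, with a flox mean of 27.7 ± 8.38 CPM and a CKO mean of 45.4 ± 10.7 CPM (adjusted p = 0.354). Next came Rgmb, a BMP co-receptor, with means of 47.0 ± 14.3 and 69.6 ± 11.4 CPM (adjusted p = 0.366). Log2 fold changes of Cdca7 and Rgmb were 0.71 and 0.57, and 0.50 and 0.34 without flox 1 and flox 4. Genes tied to reserve stem cells or injury had log2 fold changes above 0 in 5 of 5 (50.1% of all genes). Without flox 1 and flox 4 this was also 5 of 5 (53.3% of all genes). The medians were 0.49 with all libraries and 0.36 without flox 1 and flox 4. Of these 5 genes 0 passed the threshold and 3 had an unadjusted p under 0.05 (5.05% of all genes were higher at that p). None of the 3 kept it without flox 1 and flox 4. Among the 3 were Hopx at 19.5 ± 4.81 and 27.5 ± 3.89 CPM (adjusted p = 0.365) and Bmi1 at 6.85 ± 1.38 and 8.95 ± 1.32 CPM (adjusted p = 0.383).

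Markers of the other cells in these preparations are given beside these values. The 8 epithelial markers summed to 16585 to 25716 CPM in flox and 12139 to 21036 CPM in CKO, against at most 259 CPM for the fibroblast and muscle markers. Log2 fold changes were above 0 in 2 of these 8 and below in 6, with 1 lower at an unadjusted p under 0.05 (7.91% of all genes). The 8 colonocyte markers summed to 6422 to 11325 CPM in flox and 3480 to 10755 CPM in CKO, with 6 of 8 log2 fold changes above 0. At an unadjusted p under 0.05, 2 of them were higher (5.05% of all genes were). Their median was 0.12, and 0.44 without flox 1 and flox 4, where 4 of the 8 were at that p (6.41% of all genes). The 9 goblet and deep crypt secretory markers summed to 26944 to 41434 CPM in flox and 14001 to 25486 CPM in CKO, with 9 of 9 log2 fold changes below 0 and 5 of them at an unadjusted p under 0.05 (7.91% of all genes were lower at that p), 2 of which kept it without flox 1 and flox 4, where again 5 of the 9 were at that p. Cell cycle genes summed to 682 to 830 CPM in flox and 664 to 830 CPM in CKO, with 7 of 17 log2 fold changes above 0. Of the 17, 2 were lower at an unadjusted p under 0.05 (7.91% of all genes), 1 of which kept it without flox 1 and flox 4. Every CKO library was below every flox library for 2 cell cycle genes, 2 goblet markers and 1 endothelial marker (1.26% of all genes). Leukocyte markers summed to 21.3 to 42.2 and 25.7 to 41.7 CPM, endothelial markers to 8.52 to 12.8 and 5.61 to 8.46 CPM, and neuron and glia markers to 2.81 to 4.90 and 2.26 to 4.0 CPM. By edgeR 0 of these markers passed over all genes, while DESeq2 called 1 goblet and 1 endothelial marker, and 0 markers of any of these lists were at 0 in all libraries. In such bulk samples fewer cells of a type and less RNA per cell cannot be told apart.

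Levels of the 10 genes can be compared with each other only per length, for which the authors' FPKM (fragments per kilobase, scaled to sequencing depth) was used. The mean over all libraries put Lrig1 first at 21.3 FPKM, followed by Lgr4 (14.7), Axin2 (13.5), Smoc2 (12.7), Rnf43 (8.26) and Ascl2 (5.75). Znrf3 (1.15), Lgr5 (1.08), Nkd1 (0.84) and Tnfrsf19 (0.45) made up a lower tier. Lrig1 was above Lgr4 in 10 of 10 libraries, Smoc2 above Rnf43 and Rnf43 above Ascl2 in 9, and Ascl2 above Znrf3 and Nkd1 above Tnfrsf19 in 10. Neighbours that did not keep an order were Lgr4 and Axin2, Axin2 and Smoc2, and Lgr5 and Nkd1, each with the first above the second in 5 of 10 libraries, and Znrf3 and Lgr5, with 6 of 10. Lgr5, the gene that names the stem cell, thus stood far lower per length than Lgr4 in every library, at 0.21 to 2.14 FPKM against 2.28 to 24.2 FPKM. The FPKM values are scaled by totals that include mitochondrial reads, and over all genes their median log2 fold change was 0.32 with a pseudocount of 1, so group differences in FPKM are not read here.

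**Figure D4:**
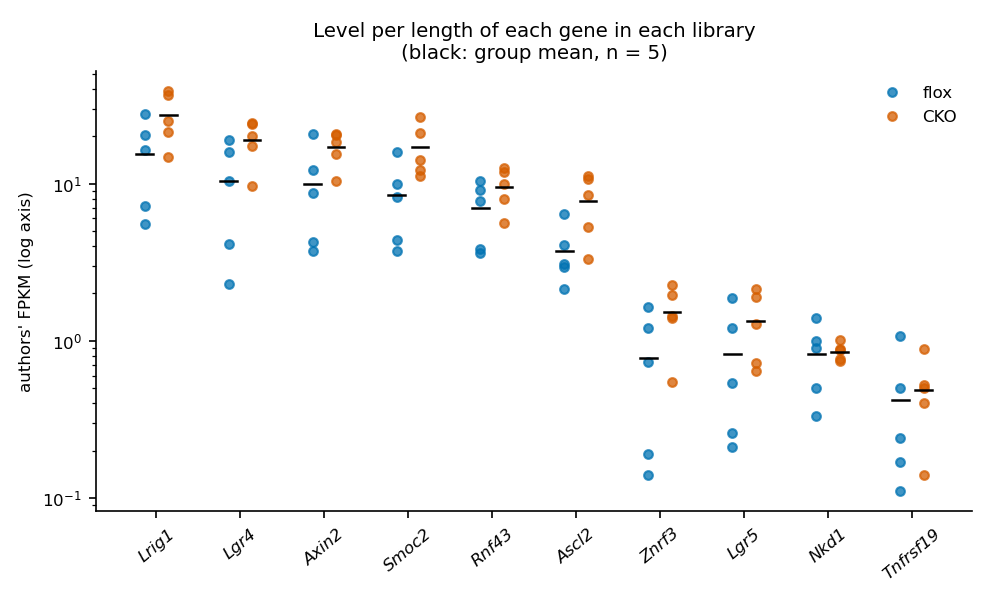
The log axis gives the authors' FPKM of each gene in each library, blue for flox and orange for CKO, with the group mean as a black bar (n = 5 each) and genes ordered by their mean over 10 libraries. The range of Ascl2 (2.13 to 11.1 FPKM) just overlaps that of Znrf3 (0.14 to 2.27 FPKM), although Ascl2 is above Znrf3 within each of the 10 libraries.

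The genes whose pattern was most like that of Lgr5 were sought among 12441 named genes by Pearson correlation of log2 CPM over the 10 libraries after each group's mean was removed. The 5 highest were Rhoj (r = 0.97), Wdr35 (0.96), Retreg1 (0.94), Tceal9 (0.93) and Gad2 (0.92), and over the 8 libraries without flox 1 and flox 4 these had r = 0.99, 0.97, 0.93, 0.89 and 0.90. They were picked as the highest of many, so the values are a description with no test, and all rest on the same libraries and the same low Lgr5 counts. Rhoj, Wdr35 and Gad2 were themselves scarce, with flox means of 0.37, 0.98 and 2.20 CPM and CKO means of 0.82, 1.44 and 2.80 CPM. Means of Retreg1 and Tceal9 ran from 39.3 to 55.2 CPM. Of the other R-spondin axis genes, Smoc2 ranked 101 (r = 0.81) and Lrig1 206 (r = 0.76), while Nkd1 ranked 5995 (r = 0.07). Over the 8 libraries these had r = 0.74, 0.60 and -0.29. Ascl2 went from r = 0.25 over 10 libraries to 0.71 over 8, and Lgr4 from 0.66 to 0.43. Znrf3, Rnf43 and Axin2 went from 0.66, 0.61 and 0.61 to 0.39, 0.38 and 0.31, and Tnfrsf19 from 0.23 to -0.03. The part of flox 1 and flox 4 in these changes of r was not tested.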

How the data were processed

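The authors deposited a table of counts, whole-number reads per Ensembl gene ID, and a table of FPKM, 1 column per library each. The submitters' processing notes name fastp and HISAT2; for build, annotation, counter and strand, the setting is not given in the sources used here. Counts divided by total and FPKM imply a gene length that varies between libraries (3.39 to 4.43 kilobases for Lgr5), so the authors' FPKM does not use 1 fixed length per gene. IDs were named through GENCODE release M21 (26095 of 33632 matched). Of Axin2 and Lrig1 exon bases 3.8% and 2.58% overlap a gene on the other strand, which leaves a small uncertainty in both.

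Counts were filtered (filterByExpr, 14963 genes), scaled by trimmed mean of M values and tested with edgeR 4.0.16 (robust glmQLFit, glmQLFTest, R 4.3.3), with group as the only term, Benjamini-Hochberg adjustment over all genes and a threshold of 0.05. DESeq2 1.42.0 and limma 3.58.1 were alternatives. The script was tested on simulated data. There edgeR called 55% of 100 genes changed 2-fold and 79% of 100 genes changed 4-fold, with 9 false calls. Each gene was drawn independently, without shifts shared by many genes of a library such as those in flox 1 and flox 4. The percentages thus do not give the share of such changes that would be called in the real libraries. Log2 CPM used a prior count of 2. No pair of libraries agreed within sampling noise (lowest chi-square per degree of freedom 27.1). The 10 genes and the lists were chosen with earlier results of these data known. Named were the 10 genes, Sox21, per pathway list the 2 genes with the smallest p (no gene passed), and the 5 named genes, without predicted genes and pseudogenes, most correlated with Lgr5; Rspo3, Lgr6, Acta2 and Myh11 are named only as not tested.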

Additional observations from a re-analysis of the deposited data

Results flagged for a closer look

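Of 38 groups of 5 libraries examined for a library far from the others, 2 held one, and chance alone flags about 1 in 20. The mitochondrial share of CKO 4 was 11.8%, against 4.30% to 6.38% in the other CKO libraries. CKO 4 was the lowest CKO library in 5 of the 10 R-spondin axis genes. The cell cycle genes summed to 830 CPM in CKO 5, against 664 to 711 CPM in the other CKO libraries, and CKO 5 was the highest CKO library in 5 of the 10 genes.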

How the results depend on the processing

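In all 23 settings, the fit of the report included, 0 of the R-spondin axis genes tested passed the adjusted threshold. Over all genes, against 0 in the report's fit, 170 were called by DESeq2, 44 by limma voom with quality weights, 2 by limma on log2(FPKM + 1), 2 on log2(FPKM + 0.1), 3 with no filter on low counts and 1 when the mitochondrial share was a covariate. DESeq2 without flox 1 and flox 4, an alternative chosen after seeing the data, called 71. Leaving out 1 library at a time gave 0 to 2 calls, the 2 being without flox 2, and 0 calls among the 10 genes. The median log2 fold change of the 10 genes ranged from 0.44 to 0.79 there. Leaving out both flox 1 and flox 4 gave 0.25, and the covariate 0.18. On log2(FPKM + 1) and log2(FPKM + 0.1) the median of all genes was 0.32 and 0.41, and that of the 9 genes tested there stood 0.54 and 0.59 above it. Of 218 single-gene values under alternatives 9 changed sign; the cause was not tested. Nkd1 was at 0.052 and 0.17 on log2(FPKM + 1) and log2(FPKM + 0.1), before the median of all genes is taken off. Rnf43 was at -0.081 with the covariate, -0.0083 without flox 1 and flox 4 and -0.015 by DESeq2 without them. Tnfrsf19 was at 0.34 by limma voom with quality weights, and between -0.34 and 0.58 with 1 library left out.

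Deviations of same-numbered libraries had correlations over genes of -0.30, 0.28, 0.09, 0.40 and -0.06 for pairs 1 to 5. Those of flox and CKO libraries with different numbers ran from -0.53 to 0.50, so the numbers were not taken as pairs. With the replicate number as a block edgeR called 0 genes, 0 of the 10 passed, and Tnfrsf19 was at 0.0069. At an unadjusted p under 0.05 were 5 of the 10 with the block and 1 without it. Of all 14963 genes, 1986 were at that p with the block and 1939 without it. The difference in mitochondrial share, -8.91 percentage points (CKO minus flox), ranged from -11.5 to -5.43 with 1 library left out. It passed the threshold without flox 2 (-11.5, two-sided exact permutation p = 0.0476). Low counts limit Lgr5, Znrf3, Nkd1 and Tnfrsf19.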
